A study of Mus musculus with 40 samples.

Results

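Macrophages display ligands on their surface that set how strongly a T cell responds to the antigen it recognises. The 8 genes described here were taken by symbol from the 27179 genes of the deposited expression table, and all 8 passed the filter on low values at every time. They are Cd40, the receptor through which helper T cells license an antigen-presenting cell, Cd83, a maturation marker that holds MHC class II and CD86 at the surface, Cd80 and Cd86, the B7 ligands of CD28 and CTLA-4, Icosl, the ligand of ICOS, Tnfsf9, the 4-1BB ligand, and Cd274 and Pdcd1lg2, which encode PD-L1 and PD-L2, the ligands of the inhibitory receptor PD-1. In bacterial infection, lipopolysaccharide (LPS) signals through TLR4 to NF-kB and MAP kinases and, through secreted type I interferon, to STAT and IRF factors, and both arms feed these genes. How long such mRNAs last depends in part on their 3′ ends: tristetraprolin binds AU-rich elements (AREs) and recruits deadenylases, while CPEB4, the protein whose gene was deleted here, binds cytoplasmic polyadenylation elements (CPEs).

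RNA-seq was done on bone marrow-derived macrophages (BMDMs) of 8 male mice of a mixed C57BL/6J and 129 background, 4 wild-type (WT) and 4 carrying a full Cpeb4 knockout (KO). Marrow was cultured for 7 days in L-cell conditioned medium, and the cells of each mouse were left untreated (0 hr) or given 10 ng/ml LPS for 1, 3, 6 or 9 hr, giving 40 libraries in 10 groups of 4. The labels name 2 batches, each with 2 mice of each genotype, and WT mice and KO mice had no cage in common, so cage and genotype cannot be told apart. Each library was made with 8 PCR cycles.

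Levels are rlog values, a log2 scale on which DESeq2 corrects for library size and draws low counts toward the gene's mean, and a difference of 1 is a 2-fold change. Read depth was not recoverable from these values, so no counting error can be given. Replicate libraries correlated at 0.992 to 0.998 over genes. Cpeb4 itself was measured as a gene total, which does not show whether the transcript is intact: it ranged from 6.88 to 7.87 in KO and from 7.03 to 8.13 in WT at 0 hr, and was lower in KO at 6 hr by 1.27 on the log2 scale (SE 0.19, adjusted p = 0.0011), the only time at which its difference passed the test. All 8 macrophage markers, including Adgre1, Csf1r and Cd68, were expressed, with a summed level of 18.98 to 19.49 (log2) in WT and 18.65 to 19.14 in KO libraries. This sum rests mostly on Lyz2, at 17.72 to 18.91 over the 40 libraries, where no other marker passed 16.52. Of 10 T cell, 5 B cell, 5 dendritic cell, 6 neutrophil and 4 fibroblast markers, 4, 1, 3, 3 and 1 had a mean level over the filter. Their summed levels were at most 10.01 in any library, and none of those markers was at 0 in every library. In such bulk cultures fewer cells that express a ligand and less of its mRNA per cell cannot be told apart.

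The sequences below are short sites in the 3′ UTRs of 5 of the ligands, chosen to show the elements that the decay protein and the deleted protein are known to bind, in a pair of ligands that were highest at 1 hr (Tnfsf9 and Cd83), a pair highest at 6 hr (Cd274 and Cd86) and the ligand with the most frequent genotype difference (Cd40). They come from the main coding transcripts of GENCODE M21 (GRCm38, the mm10 build), 5′ to 3′, with AREs (spelled ATTTA) and CPEs (spelled as TTTTAT or else as TTTTAAT) in capitals. Each is the 30-base window with the highest motif score on the transcript strand, in which a CPE counted for less than an ARE. Ties went to the window with more AREs and then to the one with its motifs nearest the centre. Overlapping matches were counted.

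Tnfsf9: aactggacttggtATTTAttctgagcatag
Cd83: gatgccacATTTAtttTTTTAATcttcatg
Cd40: taaatctgtaattATTTAtacaatgacatc
Cd274: gccctTTTTATTTAatgtatggatATTTAt
Cd86: acagtgtccataTTTTATcctgtttccttt

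The Tnfsf9 site lies at chr17:57107603-57107632 and those of Cd83 and Cd40 at chr13:43802306-43802335 and chr2:165071254-165071283, all on the plus strand. That of Cd274 lies at chr19:29387190-29387219 on the plus strand, where a CPE runs into the first of its 2 AREs. The Cd86 site, with a CPE and no ARE, lies at chr16:36605199-36605228 on the minus strand.

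Over the whole 3′ UTR, Cd274 carried 11 AREs and 5 CPEs in 2683 bases, the most of either motif among the ligands. Cd40 carried 7 AREs and 2 CPEs in 2035 bases. Tnfsf9 held 2 AREs and 1 CPE in only 253 bases. Cd83 held 2 AREs and 1 CPE, Pdcd1lg2 2 AREs and no CPE, Icosl 1 ARE and 2 CPEs, and Cd86 no ARE and 4 CPEs, whereas the 532-base 3′ UTR of the Cd80 transcript used had neither, and a longer Cd80 transcript was not searched. Among 20665 genes with an annotated 3′ UTR, 62.4% held at least 1 ARE, 54.1% at least 1 CPE and 5.86% at least 10 AREs. By ARE count, the early Tnfsf9 and Cd83 and the late Pdcd1lg2 had 2 each, and the late Cd274 and Cd86 had 11 and 0. Per kilobase of 3′ UTR, the early Tnfsf9, Cd83 and Icosl had 7.9, 1.38 and 0.617 AREs. The late Cd274, Pdcd1lg2 and Cd86 had 4.1, 2.99 and 0. A link of either measure with timing was not tested. These are letter matches in 1 transcript per gene and carry no measurement of binding. The study itself scanned each gene's longest 3′ UTR and also counted further CPE spellings, such as TTTTGT, so its counts can differ from these.

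The first question was when each ligand is made in WT cells. The ligands fell into an immediate group that was highest at 1 hr (Tnfsf9, Cd83 and Icosl), Cd80, highest at 3 hr, and a late group that was highest at 6 hr (Cd86, Cd274 and Pdcd1lg2), with Cd40 between them. From 0 to 1 hr 7 of 8 ligands rose and none fell, the exception being Pdcd1lg2, against 33.9% of all genes that passed the test in either direction. From 1 to 3 hr 4 rose and 3 fell (60.1% of all genes), from 3 to 6 hr 3 rose and 4 fell (63.7%), and from 6 to 9 hr 7 fell and none rose (51.4%). The last step had no ligand that rose even before adjustment, since all 8 means were lower at 9 than at 6 hr.

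**Figure D1:**
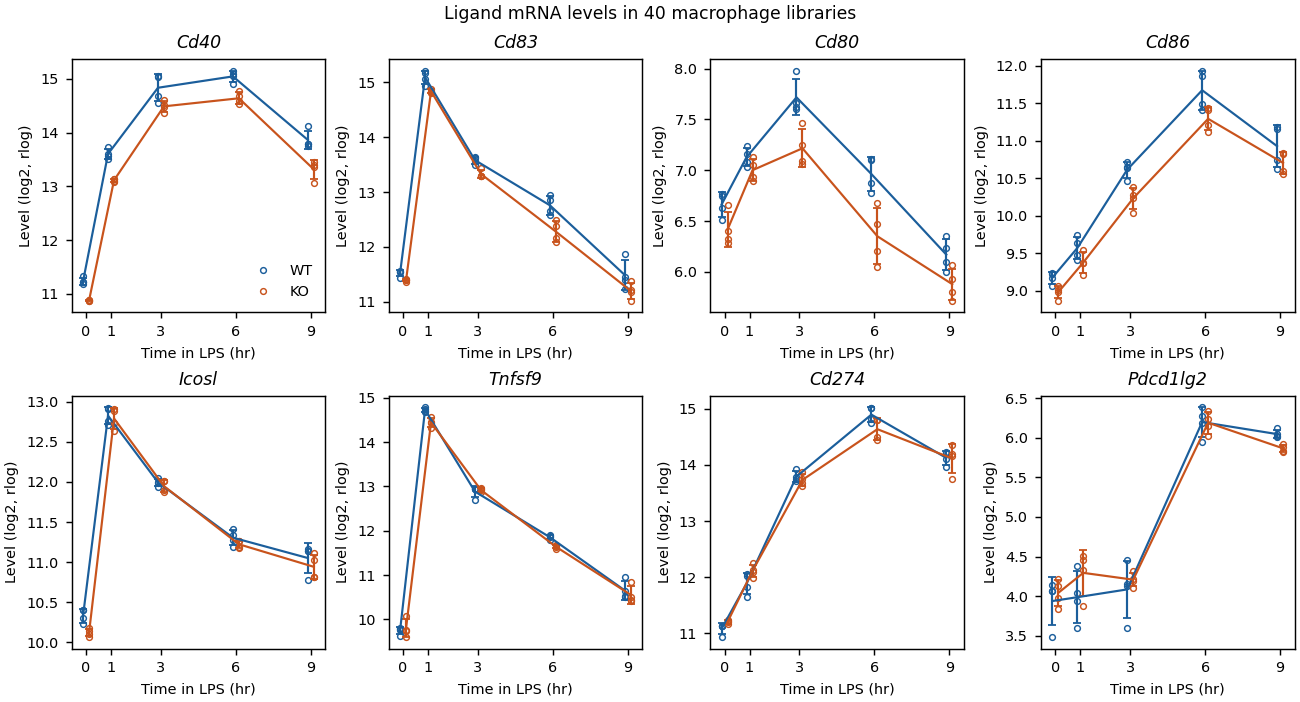
Level of each ligand (log2, rlog) against time in LPS (hr) in WT and KO libraries, with 1 circle per mouse and lines through the group means with SD bars, n = 4. Tnfsf9, Cd83 and Icosl are highest at 1 hr and Cd86, Cd274 and Pdcd1lg2 at 6 hr in both genotypes, and the KO circles of Cd40 lie below all WT circles at 0, 1, 6 and 9 hr.

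Tnfsf9, whose product drives survival of activated CD8 T cells through 4-1BB, had the steepest rise. Its level was 9.75 ± 0.08 (SD, n = 4) in untreated cells and 14.73 ± 0.05 an hour later, a 31.6-fold increase (log2 difference 4.98, SE 0.08, adjusted p = 1.6e-20). It then fell at every step, to 12.88 ± 0.13, 11.85 ± 0.05 and 10.65 ± 0.21 by 3, 6 and 9 hr. The groups of the 5 times did not overlap, and at 9 hr Tnfsf9 was still 1.87-fold above its untreated level (adjusted p = 2.1e-09).

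Cd83 rose 11.9-fold in the first hour, from 11.52 ± 0.06 to 15.09 ± 0.12, and fell to 13.58 ± 0.06, 12.76 ± 0.17 and 11.49 ± 0.27 at the later times. Its 9 hr level did not differ from that at 0 hr by the test (log2 difference −0.03, SE 0.10, adjusted p = 0.79), with overlapping groups, and under quantile normalization of the values it was lower at 9 hr (−0.34, adjusted p = 0.0018). Icosl, which supports follicular helper T cells, rose 5.63-fold to 12.83 ± 0.11 at 1 hr and fell to 11.05 ± 0.18 at 9 hr, 1.65-fold above its start. The drop of Icosl from 6 to 9 hr, 0.25 on the log2 scale, lost its call under quantile normalization (−0.11, adjusted p = 0.25).

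Cd80 and Cd86 share their T cell receptors and yet ran on different clocks. Cd80 rose from 6.66 ± 0.12 to 7.13 ± 0.09 at 1 hr and 7.72 ± 0.18 at 3 hr, and fell to 6.96 ± 0.17 at 6 hr and 6.17 ± 0.15 at 9 hr, which was 0.71-fold of the untreated level (log2 difference −0.49, SE 0.10, adjusted p = 2.3e-04; −0.16 and adjusted p = 0.14 under quantile normalization). Cd86 rose at each step to 6 hr, from 9.18 ± 0.08 to 9.57 ± 0.15, 10.62 ± 0.11 and 11.68 ± 0.26, and at 9 hr it was 10.93 ± 0.28, 3.37-fold over its start. The 1 hr step of Cd86 was 0.40 on the log2 scale (adjusted p = 0.017), and without WT mouse 25 or WT mouse 69 the adjusted p was 0.077 or 0.065.

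The within-library difference between both B7 ligands shows the same shift without any library scaling. In WT, Cd80 minus Cd86 was −2.51 ± 0.16, −2.44 ± 0.11, −2.90 ± 0.20, −4.71 ± 0.13 and −4.76 ± 0.14 at 0, 1, 3, 6 and 9 hr (log2, SD, n = 4). The balance moved toward Cd86, with a change of −2.20 from 0 to 6 hr, and no library of 6 or 9 hr overlapped one of 0 to 3 hr.

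Cd40 and Cd274 rose over several hours. Cd40 went from 11.24 ± 0.06 to 13.60 ± 0.09 at 1 hr and 14.84 ± 0.25 at 3 hr, and its level of 15.05 ± 0.11 at 6 hr did not differ from that at 3 hr by the test (log2 difference 0.21, SE 0.10, adjusted p = 0.070; −0.0014 under quantile normalization). At 9 hr it had fallen to 13.87 ± 0.17, 6.19-fold above the start. Cd274 climbed from 11.08 ± 0.10 through 11.88 ± 0.19 and 13.79 ± 0.10 to 14.90 ± 0.13 at 6 hr, and at 14.13 ± 0.12 its 9 hr level was 8.27-fold above the untreated one (adjusted p = 3.9e-17), the largest net change of the 8 ligands in these libraries.

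Pdcd1lg2 lies beside Cd274 on chromosome 19 (GRCm38, 29410919 to 29471161 against 29367455 to 29388095), and its time course differed in shape. Its WT values at 0 hr were 3.48, 4.06, 4.06 and 4.14, and at 3 hr 3.60, 4.13, 4.16 and 4.46, overlapping ranges. At 6 hr they were 5.95, 6.19, 6.27 and 6.39, all above every earlier library, a 4.33-fold rise from 3 hr (log2 difference 2.11, SE 0.18, adjusted p = 3.1e-09). Its mean was the lowest of the 8, also per kilobase of transcript, and rlog understates fold changes of genes this low.

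Cd274 minus Pdcd1lg2 therefore widened and then narrowed, from 7.14 ± 0.36 at 0 hr to 9.71 ± 0.34 at 3 hr and 8.08 ± 0.13 at 9 hr in WT.

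Set per kilobase of transcript, the order of the ligands changed with time. At 0 hr Cd83 was highest in WT (10.21 ± 0.06, rlog less the log2 of the transcript length in kilobases), followed by Cd40 at 9.66, Tnfsf9 at 9.38, Cd274 at 9.22, Icosl at 8.84, Cd86 at 7.83, Cd80 at 5.90 and Pdcd1lg2 at 3.22. Tnfsf9 led at 1 hr (14.36 ± 0.05), ahead of Cd83 (13.79 ± 0.12). At 6 hr Cd40 was highest (13.47 ± 0.11) and Cd274 next (13.04 ± 0.13), and Tnfsf9 (11.49 ± 0.05) and Cd83 (11.45 ± 0.17) overlapped.

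**Figure D2:**
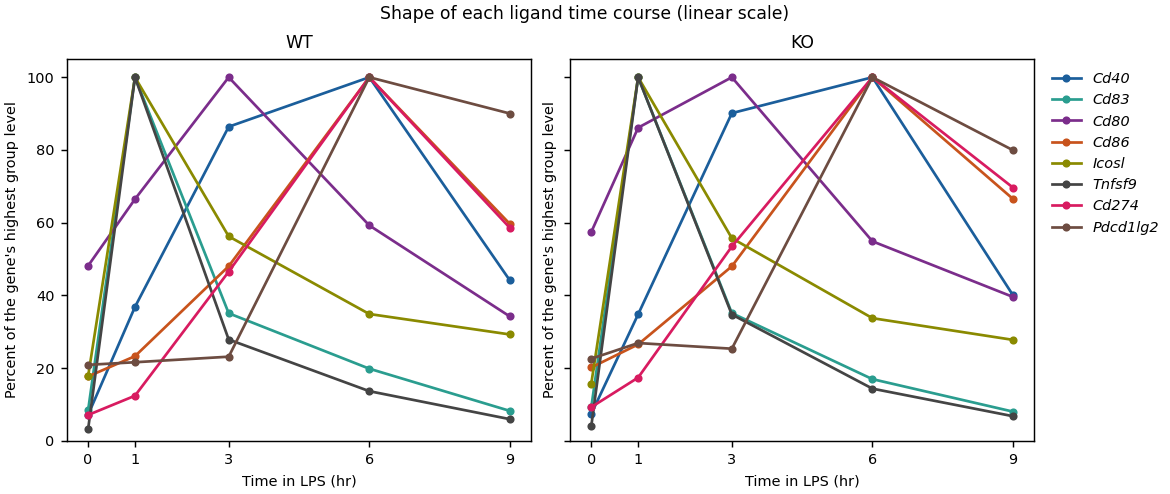
Group mean of each ligand on the linear scale as a percent of that ligand's highest group, against time in LPS (hr), in WT (left) and KO (right); points are means of 4 mice without error bars. At 9 hr the WT level was 5.93% of the highest for Tnfsf9 and 90.0% for Pdcd1lg2.

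Net of the whole course, 6 ligands were higher and 1 was lower at 9 hr than at 0 hr in WT, where 71.5% of all genes changed. In KO cells each ligand had its highest mean at the same time as in WT. From 0 to 1 hr 7 ligands rose (43.8% of genes changed), from 1 to 3 hr 3 rose and 3 fell (64%), from 3 to 6 hr 3 rose and 4 fell (64.4%), from 6 to 9 hr all 8 fell (53.6%), and between 0 and 9 hr 6 were higher and 2 lower (72.8%). The second ligand lower at 9 hr was Cd83 (log2 difference −0.20, SE 0.07, adjusted p = 0.022), a call lost without KO mouse 55 or KO mouse 62. Cd80 did not pass the test from 1 to 3 hr in KO (0.22, SE 0.13, adjusted p = 0.14), whereas with the mouse as a block it did (adjusted p = 0.042). The block also called the KO step of Cd40 from 3 to 6 hr (0.15, adjusted p = 0.032). The 6 to 9 hr fall of Pdcd1lg2 in KO, 0.32 on the log2 scale, lost its call without KO mouse 55 or KO mouse 62 (adjusted p = 0.12 and 0.10).

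The second question was whether loss of Cpeb4 changed ligand levels at each time. Most differences pointed down in KO, no ligand was called higher by limma, and the count was greatest at 6 hr. Without adjustment, Cd274 alone was higher past 0.05, at 0 and 1 hr. At 0 hr 1 of 8 ligands was lower (0.565% of all genes were called lower and 0.741% higher), at 1 hr 2 (0.938% lower, 0.976% higher), at 3 hr 3 (1.87% lower, 1.81% higher), at 6 hr 5 (9.92% lower, 6.4% higher) and at 9 hr 1 (3.22% lower, 4.69% higher). The median difference of the ligands was −0.16, −0.16, −0.16, −0.32 and −0.20 on the log2 scale at the 5 times, against 0.01, 0.02, 0.01, −0.02 and 0.00 for all genes tested. Without the filter on low values 1, 1, 0, 2 and 0 ligands were called at the 5 times, against 0.241%, 0.255%, 0.804%, 6.2% and 2.8% of all genes in either direction.

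Since each mouse gave all 5 libraries, the mouse was also fitted as a block, in 1 model of the 40 libraries. That model shared its spread over the 5 times, where the main fits took each time alone. The part of the block itself in its calls was therefore not tested. The model raised the number of genes called from 171 to 414 at 0 hr, 251 to 4323 at 1 hr, 481 to 1393 at 3 hr and 1029 to 2378 at 9 hr. For the ligands it called 1, 3, 3, 4 and 2 at 0, 1, 3, 6 and 9 hr, where it called 3.16%, 33%, 10.6%, 16.3% and 18.1% of all genes in either direction, so that at 1 hr the share of the ligands was near that of all genes.

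**Figure D3:**
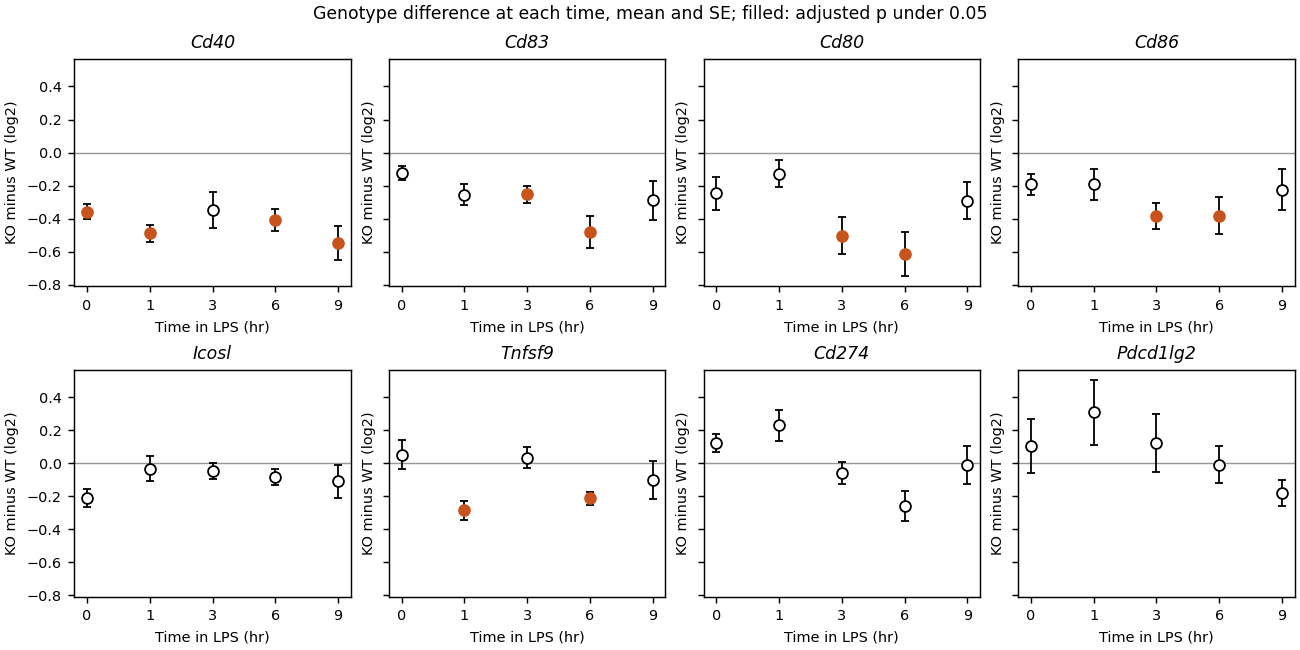
Genotype difference (KO minus WT, log2) of each ligand at each time in LPS (hr, evenly spaced), with SE bars from limma and 4 mice per genotype; filled points had an adjusted p under 0.05. Cd40 is filled at 4 of 5 times, Cd80, Cd86 and Cd83 at 3 and 6 hr, and Tnfsf9 at 1 and 6 hr.

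Cd40 differed before LPS was added. At 0 hr its level was 11.18, 11.22, 11.22 and 11.33 in WT and 10.88 in each of the 4 KO libraries. The groups did not overlap, and the difference was −0.36 (log2, SE 0.04, adjusted p = 0.0039). At 1 hr the WT values were 13.51, 13.57, 13.61 and 13.73 and the KO values 13.09, 13.09, 13.14 and 13.14, a difference of −0.49 (SE 0.05, adjusted p = 0.0038). At 3 hr the groups overlapped, with WT from 14.55 to 15.06 and KO from 14.36 to 14.60, and the difference of −0.35 did not pass the test (adjusted p = 0.10; 0.015 with the mouse as a block).

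The separation of Cd40 was again complete at the late times. WT values of 14.90, 15.05, 15.09 and 15.15 at 6 hr stood against KO values of 14.53, 14.58, 14.68 and 14.77 (difference −0.41, SE 0.07, adjusted p = 0.0018). At 9 hr they were 13.75, 13.79, 13.80 and 14.12 against 13.06, 13.37, 13.39 and 13.45 (−0.55, SE 0.10, adjusted p = 0.012), the KO level being 0.68-fold that of WT. All 4 calls were made with each of the 8 mice left out in turn, and within batch 1 and batch 2 the differences were −0.34 and −0.38 at 0 hr, −0.50 and −0.48 at 1 hr, −0.35 and −0.47 at 6 hr, and −0.57 and −0.53 at 9 hr.

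Cd40 lies on chromosome 2 in a stretch where other genes also differed between the genotypes. Slc13a3, a dicarboxylate transporter gene whose start is 0.35 Mb away, was lower in KO with log2 differences between −3.73 and −1.94 at the 5 times, and Trp53rka, 0.43 Mb away, with differences between −0.85 and −0.37. Of the tested genes within 1 Mb of Cd40, 3 of 31 were called at 0 hr, 4 of 33 at 1 hr, 5 of 31 at 3 hr, 14 of 32 at 6 hr and 6 of 32 at 9 hr, against 1.31%, 1.91%, 3.68%, 16.3% and 7.91% of all genes in either direction. They went both ways at the late times, namely 10 lower and 4 higher in KO at 6 hr and 3 each way at 9 hr. Slpi, a protease inhibitor gene, was higher by 1.43 at 6 hr and 1.27 at 9 hr, and the gelatinase gene Mmp9 by 0.44 and 0.62. Around the other 7 ligands limma called no gene at 0 hr, where between 1 of 18 (around Cd86) and 3 of 8 (around Cd83) were under an unadjusted p of 0.05. At 1 hr 2 of 22 were called around Icosl and 1 of 18 around Cd86, and at 3 hr 2 of 22 around Icosl, 1 of 8 around Cd83 and 1 of 39 around Tnfsf9. At 6 hr the shares ran from 5.88% around Cd274 to 27.3% around Icosl (6 of 22). The mice were of mixed C57BL/6J and 129 background, and the part of this chromosome segment in the Cd40 difference was not tested.

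**Figure D4:**
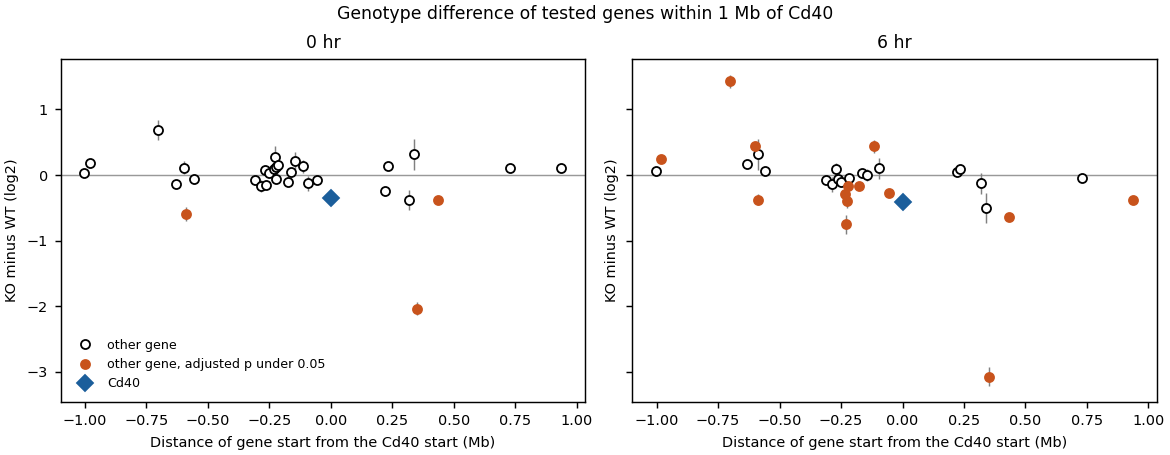
Genotype difference (KO minus WT, log2, SE bars, 4 mice per genotype) of the tested genes within 1 Mb of Cd40, at 0 hr and 6 hr, against the distance of each gene's start from that of Cd40 in Mb. The diamond is Cd40 and filled circles are other genes with an adjusted p under 0.05; the lowest point in both panels is Slc13a3, at −2.04 and −3.07.

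Cd80, Cd86 and Cd83 were lower in KO at 3 and 6 hr. Cd80 had WT values of 7.60, 7.62, 7.67 and 7.98 at 3 hr and KO values of 7.06, 7.09, 7.25 and 7.47, a difference of −0.50 (SE 0.11, adjusted p = 0.042). At 6 hr they were 6.77, 6.87, 7.10 and 7.11 against 6.05, 6.20, 6.47 and 6.68, and the difference of −0.61 (SE 0.13, adjusted p = 0.0091) was the largest among the ligands at any time. The groups did not overlap at either time. The 6 hr call held with each mouse left out, whereas that at 3 hr held in 2 of the 8 such fits, and the 3 hr difference was −0.73 in batch 1 and −0.28 in batch 2 (−0.86 and −0.36 at 6 hr).

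Cd86 stood at 10.47, 10.64, 10.65 and 10.72 in WT and 10.04, 10.24, 10.28 and 10.38 in KO at 3 hr (difference −0.38, SE 0.08, adjusted p = 0.031). Its 6 hr values, 11.41, 11.50, 11.87 and 11.93 in WT and 11.12, 11.21, 11.42 and 11.43 in KO, overlapped slightly (−0.38, SE 0.11, adjusted p = 0.037). These calls held in 3 and 4 of the 8 fits that left out 1 mouse, with adjusted p up to 0.088 and 0.11, and batch 1 and batch 2 gave −0.51 and −0.26 at 3 hr and −0.35 and −0.41 at 6 hr. With batch as a covariate neither passed (adjusted p = 0.053 at both times).

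Cd83 had WT values of 12.58, 12.65, 12.85 and 12.95 and KO values of 12.08, 12.16, 12.37 and 12.50 at 6 hr, without overlap (difference −0.48, SE 0.10, adjusted p = 0.0059; −0.42 and −0.54 in the batches). The 6 hr call held with each mouse left out. At 3 hr the difference was −0.25 (SE 0.05, adjusted p = 0.034), which the mouse block did not call (0.094), and at 1 hr and 9 hr the differences of −0.25 and −0.29 were called with the block (0.045 and 0.036) and not without it (0.066 and 0.16).

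Tnfsf9 was lower in KO at its peak. The 1 hr values were 14.68, 14.70, 14.74 and 14.79 in WT and 14.33, 14.43, 14.45 and 14.57 in KO, which did not overlap (difference −0.28, SE 0.06, adjusted p = 0.044). At 6 hr they were 11.79, 11.85, 11.88 and 11.90 against 11.60, 11.62, 11.65 and 11.69 (−0.21, SE 0.04, adjusted p = 0.0037), and with the mouse as a block this call was lost (0.10). The 1 hr call held in 2 of the 8 fits that left out a mouse and was lost under quantile normalization (−0.22, adjusted p = 0.065), without the filter (0.11) and with batch as a covariate (0.063), and the batches gave −0.25 and −0.32 at 1 hr and −0.21 and −0.22 at 6 hr.

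Icosl did not pass the test at any time. Its KO values at 0 hr, 10.06, 10.11, 10.14 and 10.18, all lay below the WT values of 10.22, 10.30, 10.40 and 10.40 (difference −0.21, SE 0.05, adjusted p = 0.081), and from 1 to 9 hr the differences were between −0.11 and −0.03 with overlapping groups.

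Neither PD-1 ligand passed the test of the genotype difference at any time. At 0 hr all 4 KO values of Cd274, 11.16, 11.19, 11.21 and 11.24, were above the WT values of 10.93, 11.12, 11.13 and 11.13 (difference 0.12, SE 0.05, adjusted p = 0.27). At 6 hr WT ranged from 14.75 to 15.01 and KO from 14.44 to 14.80 (−0.26, SE 0.09, adjusted p = 0.070), and at 9 hr the means were 14.13 and 14.12. Pdcd1lg2 differed by −0.18 to 0.31 over the 5 times, with an adjusted p no lower than 0.18. At 9 hr its KO values of 5.82, 5.84, 5.88 and 5.92 all lay below the WT values of 6.01, 6.02, 6.04 and 6.12. For both genes an adjusted p above the threshold leaves differences of this size possible.

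Counted without any model, 3, 3, 3, 4 and 2 ligands had all 4 KO libraries below all 4 WT libraries at 0, 1, 3, 6 and 9 hr, against 5.04%, 8.11%, 6.58%, 12% and 8.51% of all genes tested. They were Cd40, Cd83 and Icosl at 0 hr, Cd40, Cd83 and Tnfsf9 at 1 hr, Cd80, Cd86 and Cd83 at 3 hr, Cd40, Cd80, Cd83 and Tnfsf9 at 6 hr, and Cd40 and Pdcd1lg2 at 9 hr.

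The macrophage markers moved the same way in part. Of 8, 1, 1, 2, 4 and 3 were called lower in KO at the 5 times and none higher. Of all genes, 0.565%, 0.938%, 1.87%, 9.92% and 3.22% were called lower. The median difference of the markers was −0.25 at 6 hr. Csf1r, the receptor for the growth factor of these cells, was lower at 6 hr by 0.25 (adjusted p = 0.0044) and Cd68 by 0.26 (0.0017), while Adgre1 differed by −0.02 (0.85). Cd68 was also lower at 9 hr, by 0.25 (0.024), when Csf1r differed by 0.01 (0.95). Lyz2 was lower at 3 and 6 hr by 0.55 and 0.38 (adjusted p = 0.011 and 0.019). Cd14 was the marker called at 0 and 1 hr, lower by 0.32 and 0.38 (adjusted p = 0.046 and 0.013). It was also lower at 3 and 9 hr, by 0.30 and 0.38 (0.046 and 0.015). Fcgr1 was lower at 6 and 9 hr by 0.28 and 0.31 (0.0037 and 0.026). Itgam and Mertk pointed up at 9 hr, by 0.22 and 0.38, and were not called (0.17 and 0.11). Of the other cell types, the T cell gene Lck was lower in KO at 6 and 9 hr by 0.39 and 0.55 (adjusted p = 0.034 and 0.037). The 3 dendritic cell genes tested did not move together: at 6 hr Xcr1 was lower by 0.49 (adjusted p = 0.012), Zbtb46 differed by 0.30 (0.39) and Ccr7 by 0.26 (0.40), and at 3 hr Zbtb46 was higher by 1.10 (0.0068). The part of macrophage content and of these markers in the ligand differences was not tested.

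A further comparison asked whether the genotype difference changed with time in LPS. By limma's interaction test none of the 8 ligands passed, with 1, 0, 4 and 0 of them at an unadjusted p under 0.05 at 1, 3, 6 and 9 hr against 0 hr, where 1.57%, 5.03%, 15.1% and 12% of all genes were, and 0 of 8 for 9 against 6 hr (14.6%). After adjustment 0.00763%, 0.206%, 2.94%, 1.76% and 1.92% of all genes were called. Those 4 at 6 hr were Cd274 (−0.38, SE 0.14, adjusted p = 0.14), Cd80 (−0.37, SE 0.16, 0.27), Cd83 (−0.36, SE 0.13, 0.14) and Tnfsf9 (−0.26, SE 0.12, 0.29). For Cd40 the departure was −0.05 (SE 0.13, adjusted p = 0.89). With the mouse as a fixed block the number of genes called rose from 27 to 72 at 3 hr, 385 to 1032 at 6 hr, 231 to 654 at 9 hr and 252 to 737 for 9 against 6 hr, and of the ligands Cd274 alone was called, at 6 hr (adjusted p = 0.032). The block called 0.00763%, 0.549%, 7.88% and 4.99% of all genes at the 4 times against 0 hr and 5.62% for 9 against 6 hr.

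How far each ligand had come down by 9 hr was then expressed as the 9 hr level in percent of the mouse's own highest level. Cd86 stood at 58.4, 58.6, 59.4 and 62.2% in WT mice and 65.5, 65.9, 66.7 and 68.0% in KO mice, without overlap. The means, 59.7 ± 1.8 and 66.5 ± 1.1%, differed at p = 0.029 in a two-sided exact permutation test, the smallest p that 4 against 4 mice allow, and at 0.23 after Benjamini-Hochberg adjustment over the 8 ligands. A single ligand at that smallest p cannot pass after the adjustment. The percent is relative to the peak, and the level of Cd86 itself was not higher in KO at 6 or 9 hr. It differed by −0.38 at 6 hr and by −0.22 at 9 hr (log2, limma adjusted p = 0.037 and 0.28). The limma interaction of Cd86 for 9 against 6 hr was 0.16 (SE 0.16, adjusted p = 0.71). Cd274 kept 58.6 ± 1.6% in WT and 70.2 ± 9.9% in KO (exact p = 0.057, adjusted 0.23), with KO mice spread from 59.6 to 82.4%.

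The other 6 ligands gave larger p-values. WT and KO means were 43.1 and 40.2% for Cd40, 34.4 and 39.6% for Cd80, 8.43 and 8.02% for Cd83, 29.3 and 28.0% for Icosl, 5.98 and 6.77% for Tnfsf9 and 89.4 and 80.2% for Pdcd1lg2, with exact permutation p from 0.11 to 0.86, and a p of this size does not show that the genotypes were alike.

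PD-L1 binds CD80 on the same cell, so the balance of their mRNAs was compared within each library. Cd274 minus Cd80 was 4.36 to 4.50 in WT and 4.58 to 4.87 in KO at 0 hr, 5.95 to 6.17 and 6.41 to 6.63 at 3 hr, and 7.91 to 7.98 and 8.04 to 8.60 at 6 hr (log2). At these 3 times no KO library overlapped a WT library, and the differences of 0.37, 0.44 and 0.35 each had an exact permutation p of 0.029, the smallest possible, with an adjusted p of 0.14 over the 15 balance tests. At 1 and 9 hr the differences were 0.36 and 0.28 (exact p = 0.057 and 0.23). Taken alone at 0, 3 and 6 hr, Cd80 differed by −0.25, −0.50 and −0.61 and Cd274 by 0.12, −0.06 and −0.26 (KO minus WT). Cd80 minus Cd86 differed between genotypes by −0.23 to 0.06 and Cd274 minus Pdcd1lg2 by −0.25 to 0.17, with exact permutation p from 0.057 to 0.94.

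**Figure D5:**
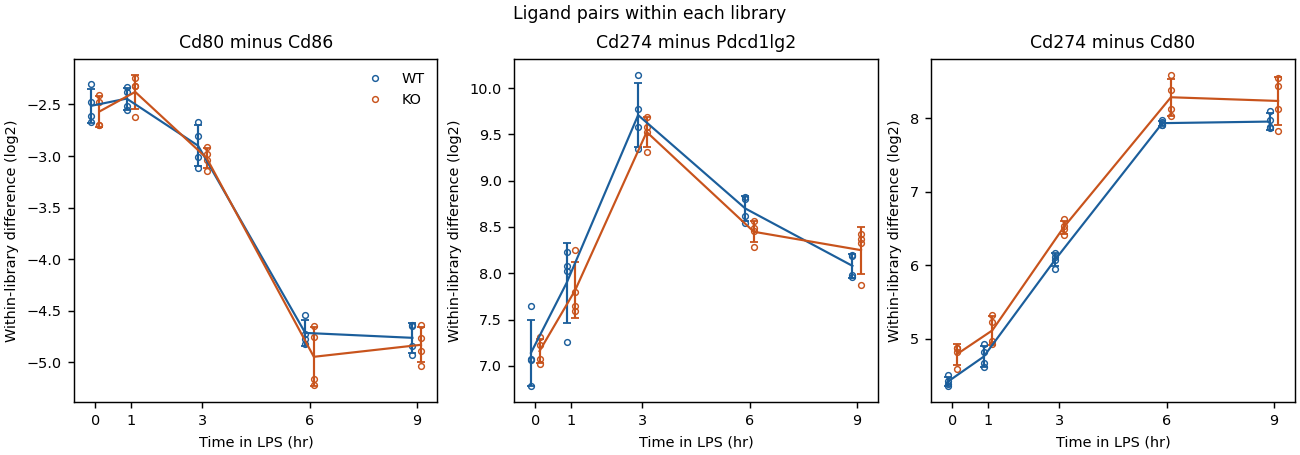
Within-library difference (log2) of 3 ligand pairs against time in LPS (hr), 1 circle per mouse, with lines through the means and SD bars, n = 4. Cd80 minus Cd86 changes by −2.20 in WT and −2.38 in KO between 0 and 6 hr, and the KO libraries lie above the WT libraries for Cd274 minus Cd80 at 0, 3 and 6 hr.

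Genes around these ligands were read from 4 lists. At 6 hr 9.92% of all genes were called lower and 6.4% higher in KO, and at 9 hr 3.22% lower and 4.69% higher. Of 13 other T cell ligands tested at that time, 4 were lower, with a median of −0.11. They included Icam1, the ligand of LFA-1, which was lower by 0.59 (SE 0.06, adjusted p = 1.2e-04) at 6 hr and by 0.54 (0.0017) at 9 hr, and Tnfsf18, the GITR ligand, lower by 0.91 (0.0057) at 6 hr. Cd276, which encodes B7-H3, was higher in KO by 0.61 (adjusted p = 0.014) at 9 hr, when 1 of the 13 was higher and 1 lower.

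Of 10 genes of CD40 signalling, 1 was higher and 2 were lower at 6 hr (median −0.06), close to the shares of all genes. Of the adaptors that CD40 recruits, Traf2 was lower by 0.21 (adjusted p = 0.0025) and Traf5 higher by 0.25 (0.0071), and the ubiquitin ligase gene Birc2 was lower by 0.19 (0.012). Of 4 genes of surface turnover 1 was called at 9 hr, when 4.69% of all genes were called higher. That gene, Cmtm6, which keeps PD-L1 from lysosomal decay, was higher by 0.19 (adjusted p = 0.029). Among 12 transcription inputs, 1 was higher and 4 were lower at 6 hr. Tnf, a target and inducer of NF-kB, was lower by 0.35 (adjusted p = 0.0024) and Rela, an NF-kB subunit, by 0.14 (0.018). Of the interferon arm, Stat2 was lower by 0.20 (0.045) and Irf9 by 0.14 (0.023). Nfkb1, another NF-kB subunit, was higher by 0.21 (0.014). Ifnb1, the interferon beta gene, was the 1 input called at 3 hr. It was lower by 0.66 (adjusted p = 0.031), when 1.87% of all genes were called lower.

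The genes whose level followed each ligand most closely over the 40 libraries were found by Pearson's r among 13103 genes, as a description, since all points share the libraries and the LPS course. Tnfsf9 and Icosl were both closest to Gem (r = 0.992 and 0.985), a small GTPase gene, and Csrnp1 (0.992 and 0.985), an immediate-early nuclear protein gene. Cd83 was closest to Osgin2 (0.976) and Tnfsf9 (0.976). Cd274 was closest to Car13 (0.995), a carbonic anhydrase gene, and Msr1 (0.993), a scavenger receptor gene. Cd86 was closest to Slc11a2 (0.983), an iron transporter gene, and Serpina3f (0.982), Cd40 to Elp5 (0.987) and Bcl2a1d (0.986), Pdcd1lg2 to Slamf8 (0.965) and Gm5150 (0.962), and Cd80, with the weakest match, to Tspan33 (0.930) and Apobr (0.921).

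Among the ligands, Icosl and Tnfsf9 ran together (r = 0.981), as did Cd86 and Cd274 (0.967), while Cd80 and Cd86 did not (−0.08).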

How the data were processed

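The authors aligned the reads with STAR 2.3.0e to mm10, counted them per gene with featureCounts and deposited 1 table of log2 values, the regularised logarithm (rlog) of DESeq2, for 27179 genes and 40 libraries; counts were not used here. Groups came from the sample titles. Genes whose mean rlog reached the log2 of 5 were fitted with limma 3.58.1 (lmFit, eBayes with trend; R 4.3.3) and called at a Benjamini-Hochberg adjusted p under 0.05 over all genes tested: KO against WT at each time (8 libraries), time changes within a genotype (20), and genotype by time interaction (40). The scripts were tested on simulated data. Ratios within a mouse or library were compared by two-sided exact permutation tests. The same mouse gave all 5 times, per the labels, so mice pair the libraries: deviations from the group means correlated at a median of 0.29 over 80 same-mouse pairs (68 over 0.1, lowest −0.19). Where nothing says more, p-values measure the spread between these mice. The members and gene lists were chosen with earlier results of these data known. Named were the 8 ligands, their 2 most correlated genes each, and up to 3 called genes per pathway list with the largest difference at 6 or 9 hr, plus cell type markers. Slc13a3, Trp53rka, Slpi, Mmp9, Rbpjl, Stat2, Irf9 and Ifnb1 were chosen after their values were seen. Motifs were counted in GENCODE M21 transcripts.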

Additional observations from a re-analysis of the deposited data

Results flagged for a closer look

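In 8 of the 80 groups of 4 libraries, 1 library lay farther from the others than Dixon's critical value allows, and chance alone gives about 1 in 20 such groups. No ligand's difference between genotypes departed from that at 0 hr by the interaction test without the mouse block, and with it Cd274 did at 6 hr (adjusted p = 0.032). For Cd40, WT mouse 69 at 9 hr had 14.12 against 13.75 to 13.80 in the other WT mice. WT mouse 88 stood apart 3 times: Cd80 at 3 hr was 7.98 against 7.60 to 7.67, Icosl at 9 hr 10.78 against 11.14 to 11.16, and Tnfsf9 at 3 hr 12.69 against 12.94 to 12.95. WT mouse 25 at 0 hr had 11.43 for Cd83, the others 11.53 to 11.55, and 3.48 for Pdcd1lg2, the others 4.06 to 4.14. WT mouse 87 had 10.93 for Cd274 at 0 hr against 11.12 to 11.13. In KO, mouse 2 had 13.44 for Cd83 at 3 hr against 13.29 to 13.30. Without WT mouse 88 the 3 hr difference of Cd40 was called (adjusted p = 0.015).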

How the results depend on the processing

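Without a filter on low values the genotype comparison called 50, 53, 167, 1288 and 582 genes at 0, 1, 3, 6 and 9 hr, against 171, 251, 481, 2129 and 1029, and the interaction at 1 hr 8 against 1; with a mean of at least 5 that was 0. Batch as a covariate gave 146, 194 and 1781 at 1, 3 and 9 hr. The replicate block (mouse) gave 414, 4323, 1393 and 2378 at 0, 1, 3 and 9 hr and, for the interaction, 72, 1032 and 654 at 3, 6 and 9 hr and 737 for 9 against 6 hr, and quantile normalization 227 at 6 hr and 147 for 9 against 6 hr. Leaving out 1 mouse at a time gave 44 to 163, 40 to 2440, 76 to 2584, 1347 to 2331 and 387 to 4575 genes at the 5 times, lowest without KO mouse 3 at 0, 1 and 3 hr, KO mouse 2 at 6 hr and WT mouse 25 at 9 hr, and highest without WT mouse 69 at 0 and 1 hr, WT mouse 88 at 3 hr, KO mouse 55 at 6 hr and KO mouse 2 at 9 hr. For the interaction it gave 0 to 2, 5 to 21, 84 to 391 and 89 to 226 genes at 1, 3, 6 and 9 hr and 50 to 198 for 9 against 6 hr.

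Among the ligands, the calls of Cd80, Cd83 and Cd86 at 6 hr, Cd40 at 9 hr and Tnfsf9 at 1 hr were lost without the filter (adjusted p = 0.060, 0.059, 0.17, 0.055 and 0.11), as were all 3 calls at 3 hr (0.074 to 0.11). Batch as a covariate ended those at 3 hr, Tnfsf9 at 1 hr and Cd86 at 6 hr (0.053 to 0.069), quantile normalization Tnfsf9 at 1 hr and Cd83 at 3 hr (0.065 and 0.068), and the mouse block Cd83 at 3 hr and Tnfsf9 at 6 hr (0.094 and 0.10). The Cd40 calls at 0, 1 and 6 hr were made under every alternative run. Under quantile normalization the difference of Cd274 was 0.014 at 3 hr and 0.070 at 9 hr, the interaction of Cd40 at 6 hr 0.096, its change from 3 to 6 hr −0.0014 in WT and −0.069 in KO, and the KO change of Pdcd1lg2 from 1 to 3 hr 0.012; it shifted the median gene by 0.10 between 0 and 9 hr in WT. Leaving out 1 mouse reversed the sign of small differences that were not called: Pdcd1lg2 from −0.049 to 0.17 at 0 hr, −0.040 to 0.25 at 3 hr and −0.092 to 0.054 at 6 hr, Cd274 from −0.089 to 0.11 at 9 hr, Tnfsf9 from −0.042 to 0.12 at 0 hr and −0.031 to 0.057 at 3 hr, and Icosl from −0.074 to 0.016 at 1 hr. The WT changes of Pdcd1lg2 ran from −0.086 to 0.22 from 0 to 1 hr and −0.057 to 0.28 from 1 to 3 hr, that of Cd83 from −0.15 to 0.057 between 0 and 9 hr, and the 6 hr interaction of Pdcd1lg2 from −0.26 to 0.065. The cause was not tested. Pdcd1lg2 was not tested at 0, 1 and 3 hr with a mean of at least 5, since it lay below it. No percent of peak or balance of the ligands passed its adjusted exact permutation test, with all mice or with 1 left out. The smallest exact p is 0.029 in both designs, so the adjusted tests could pass only if many reached it together. They therefore cannot decide for a single ligand or pair, and within a batch 2 against 2 mice allow no test that could pass. Small uncalled differences changed sign: in batch 1 alone, Icosl's percent of peak (1.47), Cd80 minus Cd86 at 1 hr (−0.029) and Cd274 minus Pdcd1lg2 at 0 hr (−0.20), and in batch 2 alone, Cd80 minus Cd86 at 0, 6 and 9 hr (0.089, 0.045 and 0.044). With 1 mouse left out, the percent of peak differed by −1.10 to 0.73 for Cd83 and −3.51 to 0.29 for Icosl, and the balance by −0.11 to 0.016 for Cd80 minus Cd86 at 0 hr and −0.099 to 0.19 and −0.29 to 0.032 for Cd274 minus Pdcd1lg2 at 0 and 1 hr. Rlog values carry no depth, and rlog shrinkage can leave differences of low genes such as Cd80 and Pdcd1lg2 understated.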
